A study of Ovis aries with 32 samples.

Results

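Gene expression in tissue labelled hypothalamus was compared with that in tissue labelled pituitary in Tan sheep, a fat-tailed Chinese breed, on the control diet. The comparison used 8 of the 32 RNA-seq libraries of the study, 4 per label. They were taken by their labels, hypothalamus CON 1 to 4 and pituitary CON 1 to 4. All 24 sheep of the feeding trial were males aged 3 months and ate a basal pellet for 60 days after 10 days of adaptation. The control group (CON) had the pellet alone, and the other 12 sheep had it with 1% succinic acid (SA). Per the labels' protocol, 4 sheep per diet were sampled in every tissue, but nothing says that libraries of the same number came from the same sheep. The 4 libraries of a label therefore measure the spread between these samples, which covers sheep, dissection and library together. Of 30722 rows in the table, 14427 were tested, those that reached 1 TPM in 4 or more of these 8 libraries. A gene under 1 TPM in all 4 libraries of 1 label was tested only if all 4 of the other reached 1 TPM. The direction of such a gene was therefore set by the filter. TPM, a transcript abundance scaled by length and library total, is a share of each library's transcripts, and keeps no record of sequencing depth.

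The hypothalamus is a part of the forebrain whose neurons release peptide hormones and control feeding, body temperature, water balance and the pituitary below it. The anterior pituitary is a gland of epithelial origin that makes prolactin, growth hormone, gonadotropins, thyrotropin and corticotropin, while the posterior lobe holds axons from the hypothalamus. The striatum, another part of the forebrain, consists mostly of inhibitory projection neurons. These neurons receive dopamine and use a cyclic AMP signalling pathway built around DARPP-32. The thalamus and midbrain lie behind the striatum. They take their identity in development from transcription factors such as OTX2, SOX14 and the GATA and TAL factors. Differences between brain regions in bulk RNA mix regional gene use with the proportions of neurons, glia and vessels. In such samples fewer cells of a type and less RNA per cell cannot be told apart.

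Several peptides that define hypothalamic neurons were low in the libraries labelled hypothalamus, while others on the same list, such as NTS and SST, were abundant. Arginine vasopressin (AVP), made by large hypothalamic neurons, stood at 0.28, 0.72, 0.21 and 0.20 TPM there and at 1.82, 0.45, 0.47 and 0 TPM in the libraries labelled pituitary. PMCH, the precursor of melanin-concentrating hormone, was at 0.09 to 0.13 TPM against 0 to 0.29. The orexin precursor HCRT reached 0.64 to 2.56 TPM against 0.12 to 1.34. Both groups held such levels in the range of a few TPM or less, and their values overlapped for AVP, PMCH and HCRT. Releasing hormones were equally low, with TRH at 0.99 to 2.22 TPM, CRH at 0.06 to 0.87, GHRH at 0 to 0.14 and GNRH1 at 0 to 0.84 in the hypothalamus-labelled libraries. SIM1 and OTP, transcription factors that specify neuroendocrine neurons, were at 0 and 0 TPM. On the list of hypothalamic peptides 2 of 12 tested members were higher, NTS and NPY, and 2 were lower, ADCYAP1 and CARTPT, and 11 were below the filter. These shares were 16.7% higher and 16.7% lower, next to 7.80% and 23.2% over all genes tested. The summed TPM of that list was 393 to 623 against 122 to 165, of which NTS, NPY and SST, described with their values below, made up most in the hypothalamus-labelled libraries. Of the 21 hypothalamic transcription factors on the list that the table names, 12 were below the filter and 6 were listed at 0 in all 8 libraries. Of the 9 tested, 7 were lower and 1 was higher (11.1% higher, 77.8% lower). The median change was −2.09, and the summed list TPM was 50.3 to 66.8 against 104 to 140.2. LHX9, SOX14, BARHL1 and NKX2-1 were under 1 TPM throughout 1 label, so the filter set their direction. The counts and the median of the list therefore depend in part on the filter. The lower ones were LHX9, SOX14, BARHL1, FOXB1 (−2.37), LHX1 (−2.09), POU3F2 (−1.04) and ARNT2 (−0.41). The call of ARNT2 was lost under both other scalings and without pituitary CON 2 or 3 (adjusted p 0.051 to 0.052). The higher one was NKX2-1, which specifies the ventral forebrain including hypothalamus and basal forebrain, at 1.66, 1.17, 2.77 and 2.27 TPM against 0 in every pituitary-labelled library.

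Hormones and factors that define an anterior pituitary were absent or nearly so in the libraries labelled pituitary. Prolactin (PRL), the most abundant product of the gland's lactotrophs, was at 0.10, 0, 0.17 and 0 TPM in the 4 pituitary-labelled libraries. CGA, the subunit shared by the gonadotropins and thyrotropin, was at 0 TPM, and FSHB was at 0. PITX1 and LHX3, which specify the gland, were at 0 to 0.04 and 0 to 0.12 TPM, and the receptor GHRHR of its growth hormone cells was at 0 to 0.03. POMC, the corticotropin precursor, reached 2.66 to 4.89 TPM in these libraries and 0.91 to 4.48 in the hypothalamus-labelled ones, and the groups overlapped. Of the 25 list members that the table names, 18 were below the filter, and those tested included PCSK1 (−2.81), SCG2 (−1.01) and CHGB (0.89), secretory genes that neurons also express. Genes of neurons and glia were high under both labels instead. SNAP25, a synaptic fusion protein, stood at 1220.00, 938, 1202 and 1259 TPM in the pituitary-labelled libraries, and myelin basic protein MBP at 7583, 10184, 8236 and 3738 TPM. The labels therefore go against most of the defining genes in both groups, and the groups are called here by their labels only, without another tissue name. OXT, KISS1, GH1, LHB and POU1F1 were not matched to a row and are not analysed here.

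**Figure D1:**
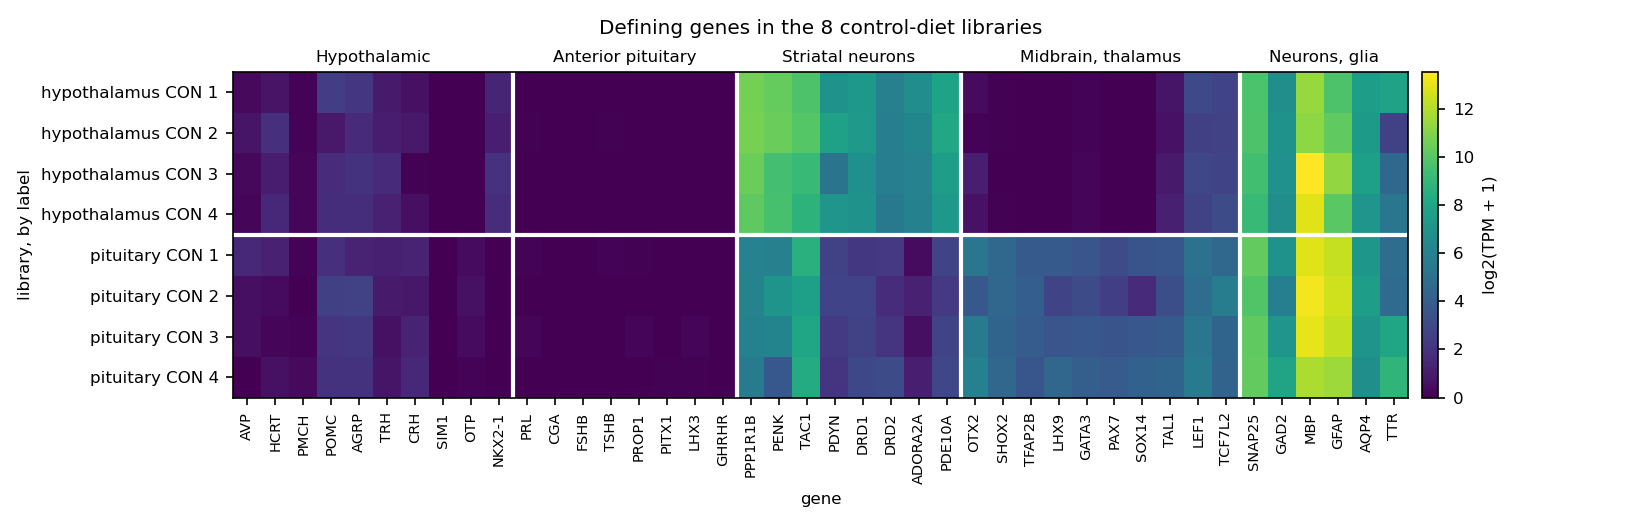
Level of defining genes (columns) in the 8 control-diet libraries (rows), as log2(TPM + 1) by colour, with the white line between the labels. The hypothalamic and anterior pituitary genes shown are dark under both labels. NTS, SST and NPY of the hypothalamic list and SCG2, CHGB and PCSK1 of the pituitary list are not shown. Striatal neuron genes are bright in the hypothalamus-labelled rows, and midbrain and thalamic genes are brighter in the pituitary-labelled rows.

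The 2 labels gave clearly different transcriptomes. The first principal component of the tested genes held 58.4% of the variance and placed the 4 hypothalamus-labelled libraries between −57.59 and −29.03 and the 4 pituitary-labelled libraries between 40.92 and 47.74. Tested with limma on log2(TPM + 1), 4471 genes differed at an adjusted p under 0.05, which is 31.0% of those tested. Throughout, higher and lower describe the hypothalamus-labelled libraries relative to the pituitary-labelled ones, and a change is that difference on the log2(TPM + 1) scale, which understates the change of genes at low levels. Of the calls, 1125 genes were higher (7.80% of those tested) and 3346 were lower (23.2%). With a change of 1 or more as well, 534 genes were higher (3.70%) and 900 lower (6.24%). Past a change of 2, 188 were higher and 156 lower, and past 3 the numbers were 71 and 40, so that the excess of lower genes lay among small changes. The 2 groups of libraries did not overlap for 1105 genes in the higher direction (7.66%) and 3799 in the lower direction (26.3%).

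The balance of directions moved with the scaling. The median change over all tested genes was −0.23, and quantile normalization and removal of mitochondrial and ribosomal RNA moved it up by 0.20 and 0.16. The split of calls was 1748 higher and 1976 lower after quantile normalization, and 1581 higher and 2101 lower after the removal. For changes of 1 or more it was 709 and 587, and 771 and 800. Mitochondrially encoded transcripts took 46.5% to 55.6% of TPM in the hypothalamus-labelled libraries and 41.3% to 44.7% in the pituitary-labelled ones, without overlap (exact permutation test, two-sided p = 0.0286, the smallest that 4 against 4 libraries allow, and 0.0571 adjusted over 4 library measures). The number of genes at 1 TPM or more was 13786 to 14103 in the first group and 14254 to 15178 in the second, which gives that p as well. Of the 534 genes higher by 1 or more, 534 were also higher by 1 or more after quantile normalization and 534 after the removal, and of the 900 lower by 1 or more the numbers were 587 and 720. Beside the counts by list, brackets give the shares of tested members that were higher and lower, next to 7.80% and 23.2% over all genes, and every list had been written with earlier results of these data known.

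The 15 largest increases, taken among called genes with a symbol whose groups of libraries did not overlap, ranged from 4.65 for PPP1R1B to 7.59 for DDN. Dendrin (DDN, ENSOARG00020001388), a postsynaptic protein of forebrain neurons, stood at 243, 255, 135 and 164 TPM in the hypothalamus-labelled libraries and was listed at 0 in all 4 pituitary-labelled libraries, a change of 7.59 (SE 0.20, adjusted p = 3.35e-08). RGS14 (ENSOARG00020012673), a scaffold that ends G protein signals, was at 179, 181, 153 and 129 TPM against 0.28, 0.40, 0.33 and 0.18, a change of 6.95 (SE 0.13, adjusted p = 8.01e-09). Both genes were under 1 TPM in every pituitary-labelled library, so the filter set their direction and the lack of overlap. Their size of change is given as a description. Mu-crystallin (CRYM), which binds thyroid hormone, was at 285, 268, 109 and 248 TPM against 2.10, 3.16, 2.01 and 2.92, with library 3 the lowest of its group. The neuropeptide neurotensin (NTS) was at 264, 483, 201 and 218 TPM against 8.83, 8.76, 5.42 and 0.30, a change of 5.69 (SE 0.63, adjusted p = 2.45e-04). Its lowest pituitary-labelled value, in library 4, was well under the other 3, and every hypothalamus-labelled value was far above them.

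Other genes among the 15 largest increases were RASGRP1, a Ras activator driven by diacylglycerol and calcium (change 5.02 (SE 0.21), 60.6 to 124 against 1.44 to 1.84 TPM), the ankyrin repeat gene SOWAHA (4.98 (SE 0.21)), and the striatal and channel genes given below. By smallest p, the increases of highest rank also took in the kinase PTK2B, with 64.3 to 107 TPM against 1.81 to 3.09, and TMEM158, with 25.7 to 31.7 against 1.04 to 1.64. CRACDL and ARHGAP25 had changes of 4.15 and 3.39 with groups that did not overlap.

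The 15 largest decreases, taken in the same way, held the transcription factors OTX2, SHOX2, TFAP2B, LHX9, EBF3 and GATA3 beside genes of other kinds. A row named U1, given under other observations, had a larger decrease than some of these, but its groups overlapped. OTX2 (ENSOARG00020019426), which specifies midbrain and caudal forebrain and is also made by choroid plexus, was at 0.30, 0.11, 1.19 and 0.58 TPM in the hypothalamus-labelled libraries and 39.05, 12.02, 44.3 and 61.1 TPM in the pituitary-labelled ones, a change of −4.54 (SE 0.45, adjusted p = 1.12e-04). SHOX2 (ENSOARG00020000755), a homeobox factor of thalamic and other neurons, was at 0.02 to 0.06 TPM against 22.2, 20.9, 19.2 and 20.8, a change of −4.38 (SE 0.12, adjusted p = 3.96e-08). TFAP2B (ENSOARG00020016055), an AP-2 factor of midbrain neurons, was listed at 0 in all hypothalamus-labelled libraries and stood at 13.5, 15.6, 14.6 and 11.4 TPM in the others. SHOX2 and TFAP2B were even across the 4 pituitary-labelled libraries, whereas OTX2 in library 2 was well below the other 3. LHX9, a LIM factor of thalamus and midbrain, was also listed at 0 in the hypothalamus-labelled group and reached 13.3, 5.88, 10.7 and 20.9 TPM in the other. MAB21L2 and MAB21L1, related genes active in developing midbrain and eye, were at 14.2 to 22.4 and 8.56 to 15.3 TPM in the pituitary-labelled libraries. In the hypothalamus-labelled ones they were at no more than 0.13 and 0.06 TPM. SHOX2, TFAP2B, LHX9, MAB21L2 and MAB21L1 were under 1 TPM in every hypothalamus-labelled library, so the filter set their direction and the lack of overlap.

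EBF3, a helix-loop-helix factor of neuronal differentiation, was at 0.08 to 0.12 TPM against 8.26 to 18.00. The neuropeptide ADCYAP1, the PACAP precursor, was at 0.04 to 0.22 TPM against 12.2, 27.3, 12.8 and 10.2, a change of −3.81 (SE 0.27, adjusted p = 1.15e-05). The GABA receptor subunit GABRR2, best known from the retina, was at 0.03 to 0.14 TPM against 22.3, 1.98, 21.4 and 44.02, and library 2 was again the lowest of its group. That library also had the lowest ZMAT4 (19.5 TPM, the other 3 at 43.0 to 84.4), LHX9, GATA3 and SOX14 values of the pituitary-labelled group. LYPD6, a membrane-anchored modulator of nicotinic receptors and Wnt signals, was at 0.77 to 1.29 TPM against 21.3 to 40.9, and PLEKHD1 had a change of −3.54 (SE 0.23). Brain-derived neurotrophic factor (BDNF), among the decreases of smallest p, was at 0 to 0.04 TPM against 5.34 to 7.90. The anion transporter SLC26A11 (−2.04 (SE 0.09)) and CCDC136 (−2.43 (SE 0.11)) were of the same rank. The 2 most negative changes of all belonged to genes without a symbol. ENSOARG00020037506 was at 0.05 to 0.44 TPM against 67.1 to 95.7 and ENSOARG00020028227 at 0.75 to 1.23 against 66.1 to 145. EBF3, ADCYAP1, GABRR2, BDNF and ENSOARG00020037506 were under 1 TPM in every hypothalamus-labelled library, so the filter set their direction as well.

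**Figure D2:**
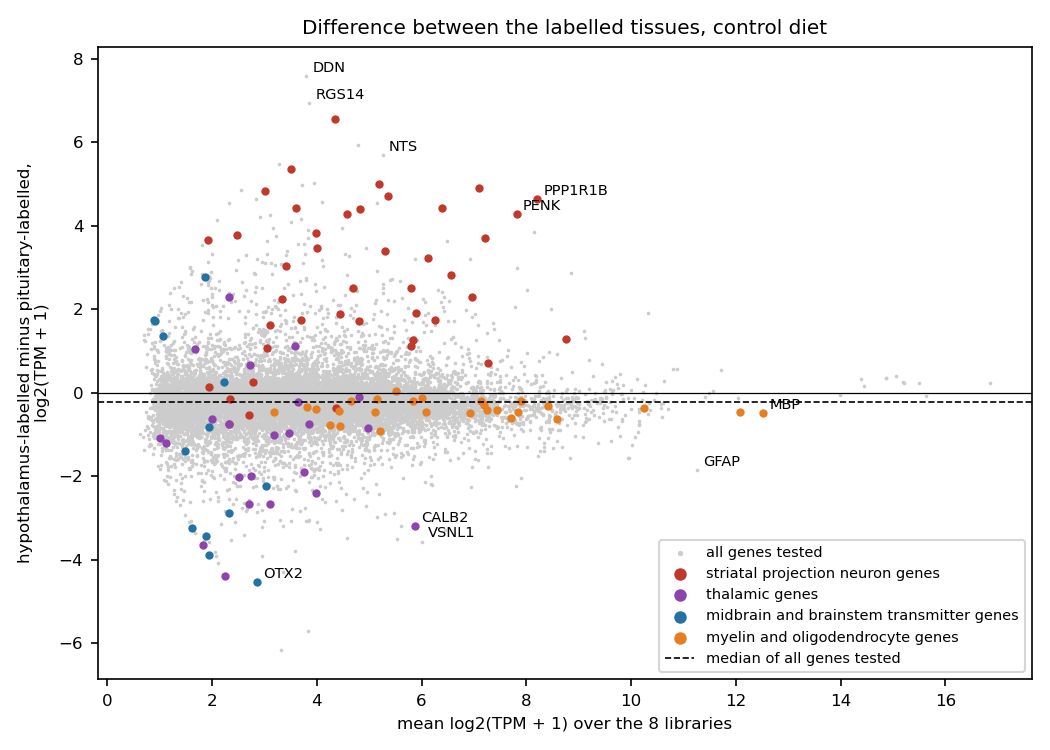
Change of each tested gene (y axis, hypothalamus-labelled minus pituitary-labelled log2(TPM + 1)) against its mean level over the 8 libraries (x axis), with 4 gene lists in colour and the median of all genes at −0.23 dashed. Striatal projection neuron genes lie mostly above 0, thalamic and midbrain genes mostly below, and myelin genes close to the median.

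Genes known from striatal projection neurons were higher almost throughout. Of 42 tested members, 35 were higher and none was lower (83.3% higher, 0% lower), with a median change of 2.66 against −0.23 over all genes. Leaving out 1 library at a time gave 34 to 36 higher, with at most 1 lower. Among all called genes 25.2% were higher, so the list ran against the general direction. PPP1R1B (ENSOARG00020014711), which encodes DARPP-32, the phosphatase inhibitor on which dopamine signals converge, stood at 1651, 1733, 1446 and 1154 TPM against 63.4, 64.4, 59.99 and 46.5, a change of 4.65 (SE 0.16, adjusted p = 2.61e-07). The groups were far apart, and both were even among their libraries. ARPP21, another phosphoprotein of that pathway, was at 870.01, 941, 574 and 662 TPM against 23.2, 15.8, 26.00 and 33.7.

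The peptide precursors of these neurons were all higher. Proenkephalin (PENK), of the indirect pathway, was at 1282, 1369, 706 and 782 TPM against 57.5, 125, 67.7 and 12.4, a change of 4.28 (SE 0.61, adjusted p = 9.27e-04). Prodynorphin (PDYN), of the direct pathway, was at 117, 215, 36.2 and 130.4 TPM against 5.29, 5.55, 3.95 and 3.18. Hypothalamus-labelled library 3 was far below the rest of its group for PDYN, yet above every pituitary-labelled value. TAC1, the substance P precursor, was at 871, 981, 572 and 422 TPM against 383, 194, 243 and 315, a change of 1.29 (SE 0.30, adjusted p = 0.00974). TAC1 was thus abundant under both labels and its change was the smallest of the 3 precursors.

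Receptors of both projection pathways were higher. The dopamine receptor DRD1, which raises cyclic AMP, was at 149.6, 150.3, 109 and 117 TPM against 3.62, 5.51, 5.22 and 6.72, a change of 4.41 (SE 0.18, adjusted p = 5.86e-07). DRD2, which lowers it, was at 59.1, 53.7, 54.2 and 43.8 TPM against 3.79, 2.27, 3.07 and 7.41, a change of 3.47 (SE 0.26, adjusted p = 1.90e-05). ADORA2A, the adenosine receptor that sits with DRD2 on enkephalin neurons, was at 96.3, 73.8, 62.3 and 60.04 TPM against 0.31, 1.33, 0.47 and 1.19. None of the 3 receptors overlapped between labels. The muscarinic receptor CHRM4 of direct-pathway neurons was at 15.4 to 24.7 TPM against 0.36 to 0.87, so the filter set its direction. The orphan receptors GPR6 and GPR149 had changes of 3.67 and 1.62.

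Genes that couple these receptors to cyclic AMP and are known for high levels in striatum were higher, while the more general subunits GNB1, GNAO1 and GNAI1, given below, did not pass. GNAO1 did pass as higher after quantile normalization (adjusted p = 0.0166) and after removing mitochondrial and ribosomal RNA (0.0291). GNAL, the olfactory-type alpha subunit that serves DRD1 and ADORA2A, was at 284, 300.2, 204 and 217 TPM against 34.2, 31.5, 33.01 and 38.9, a change of 2.82 (SE 0.14, adjusted p = 1.79e-06). Its partner GNG7 was at 635, 623, 457 and 454 TPM against 32.8, 42.5, 43.98 and 42.4, a change of 3.70 (SE 0.15, adjusted p = 6.42e-07). ADCY5, the adenylyl cyclase of the striatum, was at 142, 157, 109 and 104 TPM against 10.1, 12.1, 10.9 and 11.3, a change of 3.40 (SE 0.15, adjusted p = 7.10e-07). Phosphodiesterases followed the same direction, with PDE10A at 231, 270.4, 189 and 148 TPM against 5.88, 3.79, 5.94 and 6.48 and PDE1B at 216 to 347 against 37.1 to 91.9. RGS9, which shortens dopamine receptor signals, was at 45.7 to 77.1 TPM against 6.67 to 15.5, and the phosphatase PTPN5 at 102 to 134 against 25.3 to 35.3. RASD2, a striatal Ras-like protein also called Rhes, stood at 325 to 465 TPM against 12.7 to 25.4, and the channel-like ANO3 at 138 to 276 against 2.95 to 11.1. For all genes from GNAL to ANO3 here the lowest hypothalamus-labelled value exceeded the highest pituitary-labelled value.

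Transcription factors of striatal neurons were higher with exceptions. SIX3 was at 44.6, 46.6, 40.5 and 37.8 TPM against 0.21, 1.98, 0.28 and 0.15, a change of 4.83 (SE 0.28, adjusted p = 4.62e-06). BCL11B, also called CTIP2, was at 24.02 to 35.4 TPM against 0.98 to 4.82, FOXP1 at 21.5 to 24.7 against 5.56 to 7.17, and the retinoid receptors RARB and RXRG had changes of 1.88 and 4.42. SIX3 was almost level across its 4 high libraries, while RXRG rested on a pituitary-labelled mean of 1.79 TPM. The members that did not pass included MEIS2 (1.12, adjusted p = 0.0667), FOXP2 (−0.76), EBF1 (−0.52), ZNF503 (0.27), the opioid receptor OPRM1 (0.13) and RASGRP2 (−0.37). MEIS2 did pass as higher after quantile normalization (adjusted p = 0.0431). ISL1 and EYA1 were below the filter.

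Regional transcription factors were called in both directions. Of 31 tested patterning factors, 11 were higher and 16 lower (35.5% higher, 51.6% lower), with a median change of −0.52. Higher members included factors known from the ventral telencephalon. LHX6 and LHX8, made by neurons born in the medial ganglionic eminence, were at 5.92 to 8.63 and 2.77 to 7.85 TPM against 0.02 to 0.10 and 0 to 0.06. The distal-less factors DLX1, DLX5 and DLX6 had changes of 1.87, 2.91 and 3.31. SP9 and NKX2-1, also of ventral telencephalic origin, had changes of 1.96 and 1.54. With the exception of DLX6, SIX3 and LHX2, the higher factors named did not exceed 1 TPM in any pituitary-labelled library. Where they stayed under 1 TPM there, the filter set their direction.

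Lower members included factors known from midbrain, thalamus and pretectum. PAX7, a factor of the dorsal midbrain, was listed at 0 in all hypothalamus-labelled libraries and at 7.84, 4.70, 10.3 and 13.7 TPM in the pituitary-labelled ones. BARHL1 was at 0 to 0.03 TPM against 2.06 to 16.5, DMBX1 at 0 to 0.13 against 1.97 to 15.03, and the Iroquois factors IRX1, IRX2, IRX3 and IRX5 had changes of −2.08, −2.62, −2.68 and −1.83. PAX7, BARHL1 and DMBX1 were under 1 TPM in every hypothalamus-labelled library, so the filter set their direction. The counts and the median of the patterning list therefore depend in part on the filter. ZIC1 and ZIC2 were lower with both groups above 0, ZIC1 at 1.51 to 2.52 TPM against 7.70 to 12.8. The nuclear receptors NR2F1 and NR2F2, also called COUP-TFs, had changes of −1.03 and −1.66. EMX2, a factor of dorsal telencephalon, was lower by a small amount (−0.52 (SE 0.14)), its call was lost under both other scalings and without hypothalamus CON 2 or pituitary CON 4 (adjusted p 0.0518 to 0.0563), and its sign turned over all 16 libraries. MEIS1 (−0.34), PBX3 (−0.037), PAX6 (0.57) and MEIS2 did not pass. PAX6 did pass as higher under both other scalings, and PAX6 and MEIS2 did over all 16 libraries (adjusted p = 0.000552 and 0.00711).

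The midbrain and brainstem list also held calls in both directions. Of its 13 tested members 7 were lower and 4 higher (30.8% higher, 53.8% lower), with a median change of −1.39. GATA3 was at 0.10 to 0.14 TPM against 10.8, 7.56, 11.6 and 16.2, a change of −3.44 (SE 0.20, adjusted p = 4.32e-06). TAL1, its partner in specifying GABA neurons of midbrain and pretectum, was at 0.56 to 1.28 TPM against 8.40 to 19.5, and SOX14 was listed at 0 against 10.6, 2.04, 11.5 and 17.1 TPM. SOX14 in pituitary-labelled library 2 was the lowest of the 4. GATA2 (−1.39) and the retinaldehyde dehydrogenase ALDH1A1 (−2.24), known from a class of dopamine neurons, were also lower, with OTX2 and TFAP2B given above. Defining genes of monoamine neurons were below the filter, among them tyrosine hydroxylase TH (0.31 to 1.16 against 0 to 0.17 TPM), the dopamine transporter SLC6A3 (0 to 0.29 against 0 to 0.11) and the serotonin transporter SLC6A4 (0 to 0.46 against 0.05 to 1.06). The 4 higher members were cholinergic genes and TPH2, described with the transmitters. GATA3, SOX14 and TFAP2B were under 1 TPM in every hypothalamus-labelled library, and the cholinergic genes in every pituitary-labelled one. The filter therefore set the direction of these genes, and the counts and the median of the list depend in part on it.

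The thalamic list was mostly lower. Of 23 tested members 14 were lower and 4 higher (17.4% higher, 60.9% lower), with a median change of −1.02. TCF7L2, a Wnt effector kept on in adult thalamus, was at 5.52, 5.23, 5.95 and 7.52 TPM against 21.7, 50.8, 19.8 and 18.6, a change of −1.91 (SE 0.29, adjusted p = 0.00117). LEF1, a related Wnt effector, was at 6.98, 4.97, 6.49 and 5.15 TPM against 31.9, 27.4, 38.3 and 47.3, a change of −2.41 (SE 0.18, adjusted p = 1.59e-05). Library 2 of the pituitary-labelled group was the highest of the 4 for TCF7L2, the reverse of its place for OTX2 and GABRR2. The T-type calcium channel CACNA1G, which makes thalamic burst firing, was at 1.41 to 1.86 TPM against 7.98 to 24.02. The scaffold PATJ (−2.67) and the calcium sensor SYT9 (−1.998) were lower too. PRKCD, a kinase of thalamic relay neurons, went the other way at 6.31 to 9.76 TPM against 4.03 to 4.60 (0.67 (SE 0.15)), as did SYNPO2 (2.30), INHBA (1.04) and LHX2 (1.11). The call of INHBA was lost without any 1 library other than hypothalamus CON 2 or 3 or pituitary CON 1 (adjusted p 0.051 to 0.0639). SHOX2 and LHX9, also on this list, were under 1 TPM in every hypothalamus-labelled library, so the filter set their direction. TNNT1 (−0.10), RAMP3 (−0.23) and RORA (−0.62) did not pass.

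The cortical list was called in both directions and the cerebellar list mostly lower. Of 17 tested members of the cortical and hippocampal list, 9 were higher and 6 lower (52.9% higher, 35.3% lower), while the defining factors of excitatory cortical neurons were below the filter. SLC17A7, their glutamate transporter, was at 0.40 to 0.64 TPM against 0.19 to 0.64, TBR1 at 0 to 0.03 against 0 and NEUROD6 at 0.07 to 0.15 against 0.32 to 1.06. The higher members included NRGN, CAMK2A, LAMP5 (2.22), MEF2C (1.82) and CDH9 (1.81). Some of these are also expressed by striatal neurons or interneurons, and their cell source here was not tested. RORB (−1.88), SLA (−1.87) and CUX2 (−1.58) were lower. On the cerebellar list 8 of 13 tested members were lower and 1, CALB1, was higher (7.69% higher, 61.5% lower), with a median change of −1.32 and a summed TPM of 116 to 163 against 199.96 to 313. The lower ones included CA8 (−2.07), MAB21L1, PVALB and CBLN1 (−1.32), whose call was lost after quantile normalization and without hypothalamus CON 1 or 2 or pituitary CON 1 (adjusted p 0.0541 to 0.0615), while GABRA6, the granule cell subunit, was at 0 to 0.04 TPM in the pituitary-labelled libraries. The filter set the direction of MAB21L1, as given above. Of 27 HOX genes in the table, which mark hindbrain and spinal cord, only HOXD1 passed the filter (−0.29, adjusted p = 0.634). Of these HOX genes 15 were listed at 0 in all 8 libraries.

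**Figure D3:**
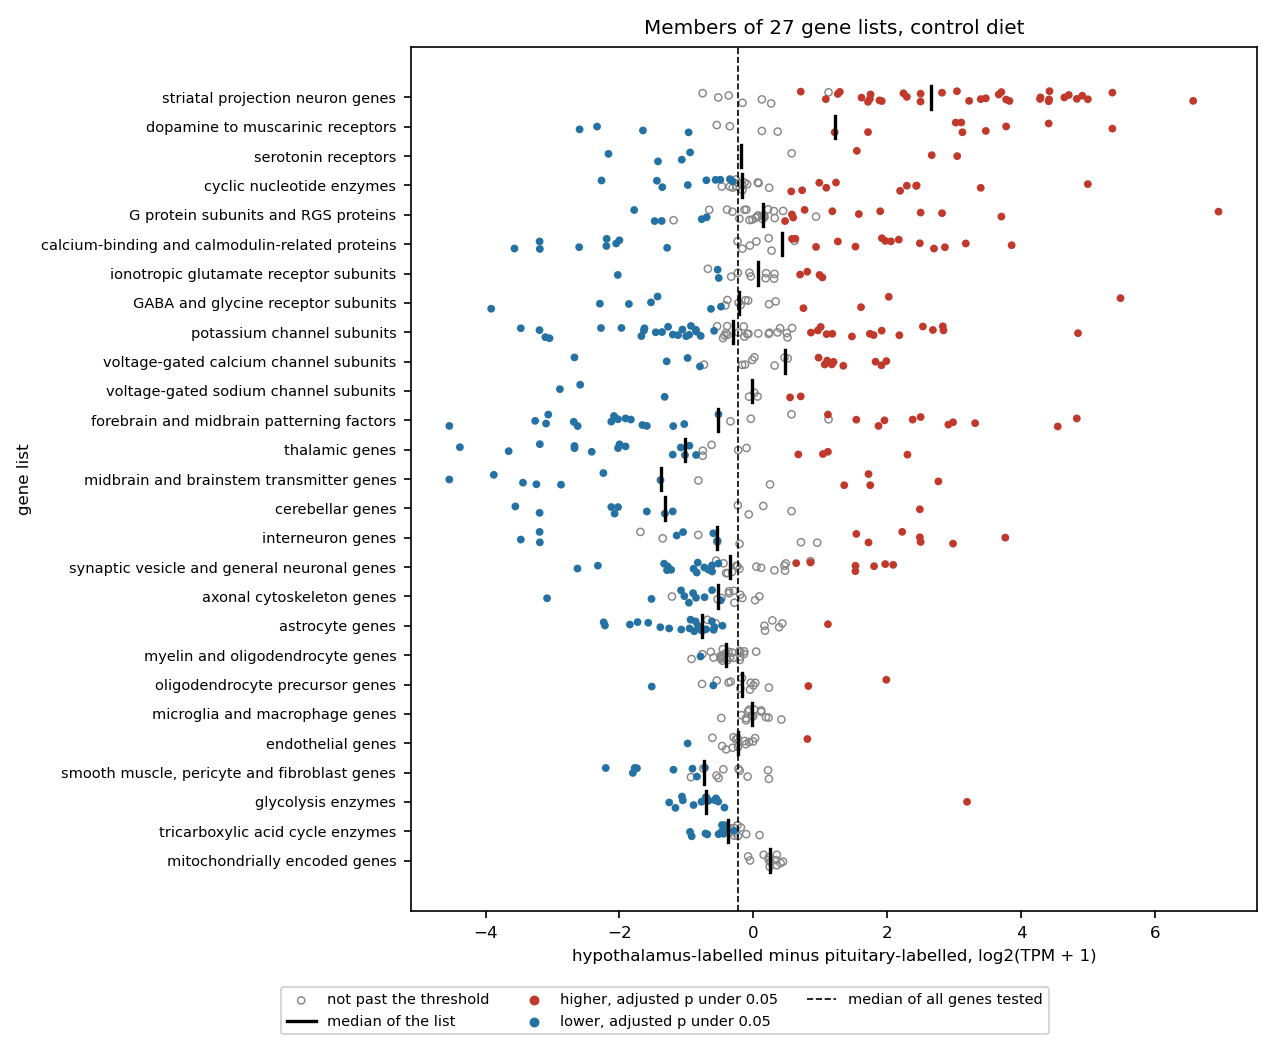
Change of each tested member of 27 gene lists (points, x axis in log2(TPM + 1)), coloured where the adjusted p was under 0.05, with the median of each list as a black bar and that of all genes dashed. The striatal list has a median of 2.66 and the astrocyte list one of −0.76, while microglial genes lie around −0.015.

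Receptors of the same family were called in both directions. Of 17 tested receptors for dopamine, adenosine, opioids, cannabinoids and acetylcholine (muscarinic), 9 were higher and 4 lower (52.9% higher, 23.5% lower). The lower share was thus near that of all genes. DRD3 was higher with DRD1 and DRD2, at 4.63 to 9.70 TPM against 0 to 0.08, while DRD5 was lower at 0.51, 0.21, 0.95 and 0.24 TPM against 6.21, 9.21, 7.66 and 8.24, a change of −2.60 (SE 0.19, adjusted p = 1.62e-05). CHRM1 was higher with CHRM4 (3.11 and 3.78), while CHRM2 was lower at 0.93 to 1.62 TPM against 5.13 to 17.4. ADORA2B (−1.65) was opposite to ADORA2A, and the kappa opioid receptor OPRK1 (3.12) opposite to the nociceptin receptor OPRL1 (−0.97). The cannabinoid receptor CNR1 was at 38.2 to 57.9 TPM against 11.9 to 19.5. DRD3 and CHRM4 were under 1 TPM in every pituitary-labelled library and DRD5 in every hypothalamus-labelled one, so the filter set their direction. ADORA1 (−0.55), CHRM3 (0.36), CHRM5 (−0.35) and OPRM1 did not pass.

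Serotonin receptors were also called in both directions, with 3 higher and 4 lower of 8 tested (37.5% higher, 50% lower). HTR2A, which excites through Gq, was at 63.1, 50.9, 43.2 and 41.6 TPM against 4.64, 6.07, 5.03 and 4.63, a change of 3.04 (SE 0.15, adjusted p = 1.57e-06). HTR2C, of the same subfamily, was lower at 3.59 to 8.04 TPM against 15.2 to 17.8. HTR1D (2.66) and HTR4 (1.55) were higher, whereas HTR1A was lower at 1.42, 1.36, 1.40 and 2.09 TPM against 8.24, 8.20, 10.99 and 15.7, a change of −2.16 (SE 0.21, adjusted p = 7.45e-05). HTR1B, at 3.64 to 19.8 against 5.54 to 7.84 TPM, did not pass (0.57, adjusted p = 0.308).

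Among 34 tested enzymes of cyclic nucleotides, 11 were higher and 9 lower (32.4% higher, 26.5% lower), so that the lower share was near that of all genes. Beside ADCY5, the calmodulin-driven cyclase ADCY1 (2.19) and ADCY3 (1.09) were higher, while ADCY8 was lower at 1.93 to 2.49 TPM against 8.18 to 23.99 and ADCY2 had a change of −1.36. PDE7B (2.44) and PDE1C (2.43) were higher with PDE10A and PDE1B, while PDE4A (−1.44) and PDE4D (−0.98) were lower. The count of lower members was 5 after quantile normalization and 5 after removing mitochondrial and ribosomal RNA. Of 37 tested G protein subunits and RGS proteins, 11 were higher and 5 lower (29.7% higher, 13.5% lower). Beside GNAL and GNG7, RGS4 (209.9 to 307 against 49.1 to 85.8 TPM), RGS2 (1.58) and GNB5 (1.18), the beta subunit that pairs with RGS9, were higher. RGS6 (−1.78), RGS11 (−1.37) and GNG2 (−1.47) were lower. The abundant subunits GNB1 (345 against 337 TPM, change 0.036), GNAO1 (0.44) and GNAI1 (−0.66) did not pass. Over all 16 libraries with diet as a covariate GNAO1 passed as higher (adjusted p = 0.0322) and GNAI1 as lower (0.0456).

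Of 19 tested GABA and glycine receptor subunits, 4 were higher and 7 lower (21.1% higher, 36.8% lower). GABRD, the delta subunit of extrasynaptic receptors, was at 66.4, 97.4, 38.9 and 64.2 TPM against 0.44, 0.43, 0.30 and 0.60, a change of 5.48 (SE 0.24, adjusted p = 7.58e-07). GABRA4, its usual alpha partner in forebrain, was at 81.2 to 140.5 TPM against 16.6 to 33.9, and GABRA5 at 39.4 to 104 against 17.5 to 33.9. GABRR2, given above, was among the lower subunits. The filter set the direction of GABRD and GABRR2, each under 1 TPM throughout 1 label. The GABA-B subunits also parted, with GABBR2 at 8.16 to 9.72 TPM against 35.7 to 69.9 and GABBR1 not passing (288 against 304 TPM, change −0.078). The glycine receptor subunit GLRA1 was lower (−1.86), while GLRB (−0.22) and GLRA2 (−0.12) did not pass.

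Of 16 tested ionotropic glutamate receptor subunits, 4 were higher and 3 lower (25% higher, 18.8% lower). GRIA2, the subunit that blocks calcium entry through AMPA receptors, was at 54.2 to 122 TPM against 34.9 to 54.8 (0.99 (SE 0.24)). GRIN2B was higher at 2.29 to 4.80 TPM against 0.86 to 1.52, while GRIN3A was lower at 0.84 to 1.24 against 4.39 to 13.1 (−2.02 (SE 0.26)). GRIN1 (103 against 109 TPM, change −0.059) and GRIA1 (89.9 against 114 TPM, change −0.33) did not pass. After quantile normalization 5 members were higher and 1 lower. Among 6 metabotropic receptors GRM3 (0.93) was higher, and GRM5 (0.50) did not pass.

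Potassium channel subunits numbered 56 tested, of which 15 were higher and 22 lower (26.8% higher, 39.3% lower). Kv3 subunits, whose quick closing permits fast spiking, were among the lower ones. KCNC2 was at 5.03, 5.02, 10.7 and 5.27 TPM against 75.4, 50.6, 86.5 and 116, a change of −3.47 (SE 0.29, adjusted p = 3.55e-05). KCNC1 was at 10.5 to 13.7 TPM against 52.4 to 78.05 and KCNC4 at 1.53 to 3.21 against 25.4 to 35.3. The pituitary-labelled values of KCNC1, KCNC2 and KCNC4 all lay above the hypothalamus-labelled ones. The pacemaker subunits HCN2, HCN3 and HCN4 were lower as well, with changes of −1.06, −0.79 and −1.20, though the call of HCN3 was lost after quantile normalization (adjusted p = 0.0523). KCNJ6, a channel opened by G proteins, was at 0.44 to 1.90 TPM against 11.6 to 17.2, and the auxiliary subunit KCNAB3 at 2.41 to 7.90 against 26.3 to 56.2.

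Other potassium channel genes went up. KCNJ4, an inward rectifier of striatal and cortical neurons, was at 37.2, 42.7, 19.5 and 26.9 TPM against 0.08, 0.06, 0.13 and 0.07, a change of 4.85 (SE 0.22, adjusted p = 1.05e-06). KCNIP2, the A-type channel partner, was at 111 to 167 TPM against 24.6 to 55.01, and KCNIP3 at 27.3 to 38.3 against 3.61 to 4.37, while their relatives KCNIP1 (−1.64) and KCNIP4 (−1.67) were lower. KCNA1, a fast-acting channel of axons (16.02 to 30.1 against 7.37 to 13.9 TPM, change 1.01), KCNAB1 (1.92), KCNA4 (1.47), the leak channel KCNK2 (2.53) and the silent subunits KCNG1 (2.84) and KCNV1 (2.83) were higher. The filter set the direction of KCNJ4, which was under 1 TPM in every pituitary-labelled library. KCNQ3, a subunit of the M-current channel, had a change of 0.96. KCND2 (0.50), KCNA6 (0.23) and KCNK1 (−0.091) did not pass. The list stood at 19 higher and 16 lower after quantile normalization and at 17 and 19 after removing mitochondrial and ribosomal RNA.

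Sodium and calcium channel subunits were also called in both directions, though the higher calls among sodium channels were not stable. Of 8 tested sodium channel subunits 3 were lower and 2 higher (25% higher, 37.5% lower). SCN1A, the alpha subunit of fast-spiking neurons, was at 6.74, 7.63, 9.39 and 6.34 TPM against 52.05, 36.8, 53.5 and 59.6, a change of −2.59 (SE 0.17, adjusted p = 7.58e-06). Its libraries did not overlap between labels, and SCN2B (−1.32) was lower too, though the libraries overlapped for it and its call was lost under both other scalings and without any 1 library other than hypothalamus CON 2 or 3 or pituitary CON 1 (adjusted p 0.0781 to 0.114). SCN2A and SCN4B were higher by less (0.55 and 0.71), with overlapping libraries. The calls of SCN2A and SCN4B were lost in the fit with the library number as a block. The call of SCN2A was also lost without any 1 library other than hypothalamus CON 3 or 4 or pituitary CON 4 (adjusted p 0.0815 to 0.104), and that of SCN4B without any 1 library other than hypothalamus CON 4 or pituitary CON 4 (adjusted p 0.0738 to 0.115). SCN8A (21.03 against 22.1 TPM, change −0.064) and SCN3B (0.063) did not pass. Of 21 calcium channel subunits 9 were higher and 4 lower (42.9% higher, 19.0% lower), so that the lower share was under that of all genes. The higher ones included CACNG4 (28.01 to 35.5 against 6.31 to 8.64 TPM), CACNG5 (1.91), CACNA2D3 (1.83) and CACNB3 (1.34). The 4 lower ones were CACNA1G, CACNG2 (−1.29), CACNG7 (−0.98) and CACNA1I (−0.80), whose call was lost under both other scalings and without hypothalamus CON 1 or pituitary CON 3 (adjusted p 0.0505 to 0.0593).

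Calcium sensors and calcium-binding proteins included some of the most abundant differing genes. Of 30 tested members 14 were higher and 9 lower (46.7% higher, 30% lower), and the counts under both other scalings were 14 and 9 as well. Hippocalcin (HPCA) was at 1179, 1177, 1138 and 867 TPM against 59.9, 59.9, 74.4 and 110.1, a change of 3.86 (SE 0.20, adjusted p = 2.02e-06). VSNL1, a sensor of the same family, was lower at 12.7, 21.6, 17.1 and 20.3 TPM against 252, 179, 232 and 222, a change of −3.57 (SE 0.17, adjusted p = 1.36e-06). HPCAL4 was higher (2.17) and HPCAL1 (−2.19) and NCALD (−1.29) lower, so that members of this family stood on both sides. The calmodulin-binding proteins neurogranin (NRGN) and PCP4 were at 919 to 1498 and 1787 to 2963 TPM against 126 to 207 and 317 to 1008.

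Of the classical calcium buffers, calbindin (CALB1) was higher at 98.9, 76.3, 29.99 and 48.6 TPM against 10.6, 3.29, 13.2 and 16.1, a change of 2.49 (SE 0.48, adjusted p = 0.0043). Calretinin (CALB2) was lower at 15.4, 14.8, 26.1 and 18.7 TPM against 177, 359, 136 and 108, a change of −3.19 (SE 0.35, adjusted p = 1.91e-04). Parvalbumin (PVALB) was lower at 11.6, 3.66, 60.1 and 17.4 TPM against 144, 103, 161 and 188, a change of −3.19 (SE 0.67, adjusted p = 0.00727), and was uneven among the hypothalamus-labelled libraries. The 2 brain-rich isoforms of calcium/calmodulin kinase II were higher, CAMK2A at 144 to 327 TPM against 36.3 to 80.1 and CAMK2B at 229.6 to 328 against 77.4 to 126. The widely expressed isoforms were lower, CAMK2D at 11.8 to 19.5 TPM against 64.6 to 92.6 and CAMK2G at 22.6 to 25.1 against 88.95 to 108. None of the 4 isoforms overlapped between labels. The calcineurin subunit PPP3CA (2.05), the kinase CAMKK2 (2.70) and the calcium release channel ITPR1 (1.26) were higher, while the release factors CADPS (31.3 to 46.9 against 85.6 to 217 TPM) and CADPS2 (−2.60) were lower.

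**Figure D4:**
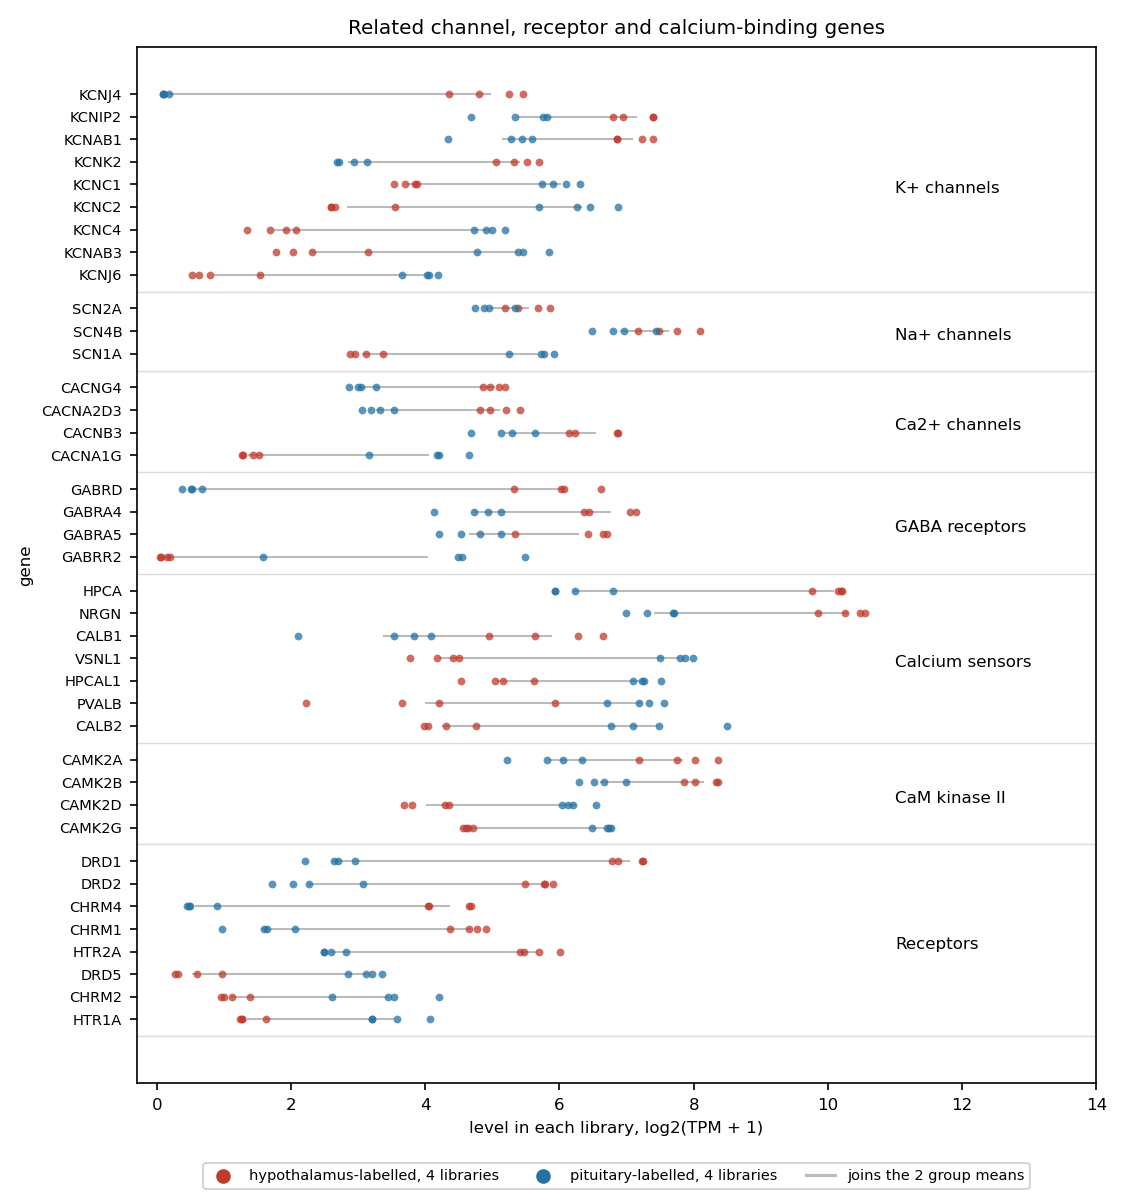
Level of 39 related channel, receptor and calcium-binding genes in each library (points, log2(TPM + 1), red for hypothalamus-labelled and blue for pituitary-labelled), with a line joining the group means. Relatives lie on opposite sides, such as CAMK2A and CAMK2B against CAMK2D and CAMK2G, and only SCN2A and SCN4B overlap between labels among these genes.

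Genes of GABA neurons were abundant under both labels, and cholinergic genes were higher. GAD2, which makes GABA, was at 104, 124, 112 and 103 TPM against 121, 56.4, 130.2 and 239 and did not pass (−0.13, adjusted p = 0.809, positive under 3 other settings and without pituitary CON 4). The vesicular GABA transporter SLC32A1 was at 47.5 to 70.2 TPM against 34.7 to 67.6 and did not pass either. The GABA uptake transporter SLC6A11 was lower at 29.2 to 40.01 TPM against 132 to 191. Choline acetyltransferase (CHAT) was at 2.52, 2.00, 3.10 and 2.09 TPM against 0.06, 0, 0.02 and 0.05, a change of 1.72 (SE 0.16, adjusted p = 5.76e-05). SLC18A3 and SLC5A7, which load and take up choline compounds in the same neurons, had changes of 1.75 and 2.76. All 3 cholinergic genes were under 1 TPM in every pituitary-labelled library, so the filter set their direction. TPH2, of serotonin synthesis, was low under both labels but higher (2.44 against 0.31 TPM, change 1.36). SLC17A6 and GAD1 were not matched to a row and are not analysed here.

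The interneuron list held 7 higher and 7 lower members of 21 tested (33.3% higher, 33.3% lower). Neuropeptide Y (NPY), made by forebrain interneurons as well as hypothalamic neurons, was at 44.3, 27.2, 32.5 and 31.3 TPM against 0.89, 4.32, 0.73 and 1.34, a change of 3.76 (SE 0.33, adjusted p = 5.80e-05). Somatostatin (SST), often made by the same cells, was at 145, 90.8, 159 and 120.2 TPM against 91.5, 54.5, 64.00 and 108 and did not pass (0.71, adjusted p = 0.0515). SST did pass as higher under both other scalings (adjusted p 0.0247 and 0.0262) and over all 16 libraries (0.0121). The lower members included PVALB, CALB2 and KCNC2, given above, and the transcription factor MAF (−1.05). Vasoactive intestinal peptide (VIP) was below the filter at 0.05 to 1.07 against 0 to 0.40 TPM. KIT (−1.69), reelin (RELN, −1.35) and PTHLH (0.95) did not pass. Other peptides were CARTPT, lower at 0.32 to 1.21 TPM against 3.33 to 12.9, and CCK, not passing (−0.82).

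On the list of synaptic and general neuronal genes 14 of 36 tested members were lower and 7 higher (19.4% higher, 38.9% lower). These were 10 lower and 10 higher after quantile normalization and 9 and 8 after removing mitochondrial and ribosomal RNA. In the SA diet 2 members were lower and 7 higher, and 7 and 9 without pituitary SA 4. Over all genes 3.06% were lower and 4.86% higher in that diet, and 20.1% and 7.67% without pituitary SA 4. Synaptophysin (SYP), of the vesicle membrane, was at 186, 233, 211 and 199 TPM against 508, 449.8, 478 and 604, a change of −1.29 (SE 0.12, adjusted p = 6.86e-05). SYT2, the fast calcium sensor of hindbrain and midbrain terminals, was at 4.04 to 8.87 TPM against 27.7 to 38.4, and the RNA-binding protein ELAVL4 at 4.12 to 8.45 against 37.1 to 53.1. SYT6 (2.09) and SYT5 (1.52) were higher. SNAP25 was at 842, 851, 678 and 553 TPM against 1220.00, 938, 1202 and 1259 (−0.67 (SE 0.16, adjusted p = 0.0129)), and its call was lost after quantile normalization (adjusted p = 0.115), after removing mitochondrial and ribosomal RNA (0.121) and with the library number as a block. UCHL1 (901 against 829.6 TPM, change 0.12), MAP2 (−0.32) and VAMP2 (−0.21) did not pass.

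Axonal cytoskeleton genes were lower in 10 of 21 tested members and higher in none (0% higher, 47.6% lower). Under the other 2 scalings 8 and 7 were lower. In the SA diet 3 members of this list were lower, and 8 without pituitary SA 4. Neurofilament medium chain NEFM was at 171, 239, 201 and 117 TPM against 471, 588, 512 and 468, a change of −1.52 (SE 0.20, adjusted p = 4.81e-04). The light chain NEFL was at 354, 407, 369 and 252 TPM against 657, 647, 752 and 732, a change of −1.03 (SE 0.15, adjusted p = 8.84e-04). ANK1, an ankyrin that ties membrane proteins to spectrin, had the largest change of the list (−3.08 (SE 0.28), 2.12 to 6.28 against 27.1 to 56.01 TPM). Of 16 perineuronal net and nodal genes, which wrap fast-spiking neurons and nodes of Ranvier, 4 were lower, including aggrecan (ACAN, −1.08) and CNTN1 (−0.93), and 2 were higher, BCAN (0.52) and HAPLN1 (0.55) (12.5% higher, 25% lower), so that the lower share was near that of all genes. The call of HAPLN1 was lost without any 1 library other than hypothalamus CON 3 (adjusted p 0.0605 to 0.127), without the filter on low values and with the library number as a block.

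Myelin genes were abundant under both labels, and their levels varied widely within each group. MBP was at 2801, 2385, 11797 and 7810.3 TPM against 7583, 10184, 8236 and 3738, and the change of −0.49 (SE 0.53) did not pass, though over all 16 libraries with diet as a covariate it was −1.22 (adjusted p = 0.039). Hypothalamus-labelled libraries 3 and 4 and pituitary-labelled libraries 1 to 3 were high for MBP, and the other 3 libraries were low. Of 27 tested members 26 had a negative change, with a median of −0.41, and 20 lay below the median of all genes. In CON only ASPA, which breaks down N-acetylaspartate, passed as lower (−0.79 (SE 0.25), adjusted p = 0.0392), and its call was lost under both other scalings and without any 1 library other than hypothalamus CON 3 or pituitary CON 4 (adjusted p 0.0525 to 0.101). In the SA diet 6 members were lower, and 11 without pituitary SA 4, where the median was −1.004. The summed TPM of the list ranged from 5806 to 26665 in the hypothalamus-labelled group and from 9634 to 23981 in the pituitary-labelled one. Among 15 precursor genes PDGFRA (0.23) and GPR17 (0.029) did not pass, 2 were lower and 2 were higher, CACNG4 and CSPG5 (0.82) (13.3% higher, 13.3% lower).

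Astrocyte genes were mostly lower, though not all of the defining ones. Of 28 tested members 20 were lower and 1 higher (3.57% higher, 71.4% lower), with a median of −0.76, and 16 and 17 were lower under the other 2 scalings. GFAP, the filament protein of astrocytes, was at 858, 1214, 2534 and 1072 TPM against 5193, 6090.00, 4972 and 2998, a change of −1.84 (SE 0.34, adjusted p = 0.00335). Angiotensinogen (AGT), made by astrocytes of caudal regions, was at 77.4, 83.9, 158 and 105 TPM against 535, 430.2, 456 and 518, a change of −2.24 (SE 0.21, adjusted p = 6.23e-05). Both varied within the labels, and neither overlapped between them. The water channel AQP4 was at 182, 164, 200.00 and 132 TPM against 142, 187, 128 and 104 and did not pass (0.28, adjusted p = 0.285). The glutamate transporters SLC1A2 (233 against 168 TPM) and SLC1A3 (339 against 299.8 TPM) did not pass either. FGFR3 (−1.73), SPARC (−1.57), ALDOC (−1.26) and ATP1B2 (−1.39) were lower, and LHX2 was the higher member. The summed astrocyte TPM was 7272 to 10908 against 14075 to 18965, and the part of the glial markers in the neuronal differences was not tested.

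None of 14 tested microglial genes passed in either direction, where 31.0% of all genes did. CX3CR1 (11.2 against 9.68 TPM), CSF1R (27.1 against 24.5 TPM) and P2RY12 (20.5 against 15.5 TPM) had changes of 0.19, 0.12 and 0.42. Of 15 endothelial genes TIE1 (−0.98) was lower and the thyroid hormone and organic anion carrier SLCO1C1 (0.81) was higher (6.67% higher, 6.67% lower), while PECAM1 (−0.47) and CLDN5 (−0.0035) did not pass. The number of lower endothelial genes rose to as many as 7 when 1 library was left out. Of 18 mural and fibroblast genes 8 were lower and none higher (0% higher, 44.4% lower), with a median of −0.74, led by the collagens COL1A1 (2.35 to 3.61 against 6.65 to 28.4 TPM) and COL1A2 (−1.77), decorin (DCN, −1.80) and OGN (−1.74). That number was 4 after quantile normalization, 5 after removing mitochondrial and ribosomal RNA, and 5 to 10 when 1 library was left out.

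Choroid plexus genes were uneven. Transthyretin (TTR), the main protein of the plexus, was at 222, 5.23, 23.1 and 39.1 TPM against 27.1, 25.4, 256 and 465 and did not pass (−1.51). FOLR1 and AQP1, other plexus genes, were below the filter at 0.10 to 0.62 and 0.06 to 0.52 TPM against 0 to 1.17 and 0.43 to 0.53. OTX2, which the plexus also makes, had the same order as TTR among the pituitary-labelled libraries, lowest in library 2 and highest in library 4. Pituitary-labelled library 1 held 39.05 TPM of OTX2 beside 27.1 TPM of TTR, and hypothalamus-labelled library 1 held 0.30 TPM of OTX2 beside 222 TPM of TTR. The part of choroid plexus in the OTX2 difference was not tested. KL (1.33) was higher, and PRLR (−0.90) and TRPM3 (4.66 to 7.20 against 18.7 to 32.8 TPM) were lower.

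Glycolytic enzymes were lower with the exception of LDHA. Of 15 tested members 14 were lower and 1 higher (6.67% higher, 93.3% lower), with 11 lower after quantile normalization and 9 after removing mitochondrial and ribosomal RNA. In the SA diet 1 member was higher and none was lower, while 7 were lower without pituitary SA 4. LDHA, the lactate dehydrogenase subunit that favours lactate, was at 179, 223, 151 and 159 TPM against 15.7, 17.5, 16.7 and 24.6, a change of 3.19 (SE 0.17, adjusted p = 2.16e-06). LDHB, the subunit that favours pyruvate, was at 403, 469, 404 and 377 TPM against 774, 618, 687 and 751, a change of −0.77 (SE 0.12, adjusted p = 9.34e-04). Every hypothalamus-labelled library held more LDHA and less LDHB than every pituitary-labelled one. PFKP (−1.16), PFKL (−1.07) and hexokinase HK1 (−1.05) had the largest decreases of the pathway beside ALDOC, and GAPDH was at 1099.8 to 1392 TPM against 1614 to 2234, its call lost under both other scalings. Of 20 tricarboxylic acid cycle enzymes 11 were lower and none higher (0% higher, 55% lower), IDH3B with a change of −0.95 and citrate synthase CS with −0.71, and 6 and 5 were lower under the other 2 scalings. In the SA diet none of these enzymes passed, and 4 were lower without pituitary SA 4. Over all genes 3.06% were lower in that diet, and 20.1% without pituitary SA 4. None of 12 tested mitochondrially encoded genes passed, although their summed share differed as given above.

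Hormone-binding and activity-dependent genes also differed. Of 20 retinoid and thyroid hormone genes 7 were higher and 4 lower (35% higher, 20% lower). Beside CRYM, RARB and RXRG, the retinoid-binding proteins CRABP1 (59.02 to 132 against 10.6 to 21.7 TPM) and CRABP2 (1.83) and the receptor THRB (0.85) were higher. ALDH1A1, HR (−1.16), the activating deiodinase DIO2 (−1.03) and RXRA (−0.90) were lower. Of 16 immediate early genes, which neuronal activity switches on, 6 were higher and 2 lower (37.5% higher, 12.5% lower). EGR1 was at 40.9, 42.2, 35.4 and 27.2 TPM against 11.7, 6.57, 19.8 and 19.2, a change of 1.38 (SE 0.31, adjusted p = 0.00903). EGR3 (2.13), EGR4 (2.52), HOMER1 (1.87), ARC (1.29) and NR4A1 (1.19) were higher too, while FOS was lower at 5.00, 8.71, 3.79 and 3.41 TPM against 13.00, 8.92, 19.5 and 16.1 (−1.33 (SE 0.29)), so members of the list did not move together. Of 10 heat shock genes 6 were lower and none higher (0% higher, 60% lower), such as HSPA8 (−0.45, its call lost under both other scalings), and this number fell to 3 and 2 under the other 2 scalings. In the SA diet no heat shock gene passed, and 4 were lower without pituitary SA 4.

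The same tissues from SA-fed sheep, which share no library with the comparison above, gave a second measurement of it. Over the 14427 genes, 701 were higher (4.86%) and 442 lower (3.06%) in the 8 SA libraries. Of all 1125 genes higher in CON, 640 (56.9%) were higher in SA, and of all 3346 lower, 353 (10.6%) were lower. Of the 534 genes higher by 1 or more in CON, 492 (92.1%) were higher in SA. Of the 900 lower by 1 or more, 303 (33.7%) were lower in SA, and no called gene was called the opposite way. Pituitary SA 4 stood apart, with 68.2% of TPM in mitochondrially encoded transcripts where the other pituitary-labelled SA libraries held 36.6% to 51.1%. Without it 1107 genes were higher (7.67%) and 2900 lower (20.1%), 780 (86.7%) of the 900 were lower in SA, and of all 3346 lower genes 1917 (57.3%) were. Across genes, the changes in the 2 diets had a Pearson correlation of 0.873, and 0.899 without pituitary SA 4, as a description over genes that are not independent.

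Within the SA diet, pituitary SA 3 and SA 4 each lay closer to the other label than SA 1 and SA 2 did for part of the genes only. DDN was at 257, 205, 133 and 223 TPM in the hypothalamus-labelled SA libraries and 0, 0, 6.93 and 0.03 TPM in the pituitary-labelled ones, where SA 3 stood out. GABRD was at 0.23, 0.49, 9.28 and 0.19 TPM, SIX3 at 0.49, 0.51, 10.7 and 1.12 TPM and NPY at 1.27, 0.95, 26.5 and 5.38 TPM in the 4 pituitary-labelled SA libraries, each highest in SA 3. TFAP2B was at 13.6, 17.4, 0.99 and 2.11 TPM and SHOX2 at 24.4, 26.1, 4.31 and 4.69 TPM in the same libraries, low in SA 3 and SA 4 next to SA 1 and SA 2. TCF7L2, lower in the hypothalamus-labelled control libraries, went the other way and reached 168 TPM in SA 3 against 36.8 in SA 1 and 26.96 in SA 2. The regional genes were thus not even among the pituitary-labelled SA libraries, whereas OTX2, SHOX2 and TFAP2B in the hypothalamus-labelled SA libraries stayed at or below 1.90, 0.07 and 0.08 TPM. Chosen after these values were seen, a fit without pituitary SA 3 gave 563 higher and 271 lower genes, and without SA 3 and SA 4 it gave 1034 and 4502.

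Whether the difference between labels itself changed with diet was tested as an interaction over all 16 libraries. With limma, no gene passed an adjusted p of 0.05, and 202 had an unadjusted p under 0.05. Without pituitary SA 4 none passed either, and 194 had an unadjusted p under 0.05. The smallest adjusted p was 0.812, shared by PTPN5, whose change was 1.92 in CON and 2.73 in SA. For PPP1R1B the changes were 4.65 in CON and 4.89 in SA, and for DRD1 4.41 and 5.32. For OTX2 they were −4.54 and −3.14, for TFAP2B −3.88 and −2.62, and for LDHA 3.19 and 3.13. A p that missed the threshold does not show that the differences were equal in the 2 diets.

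**Figure D5:**
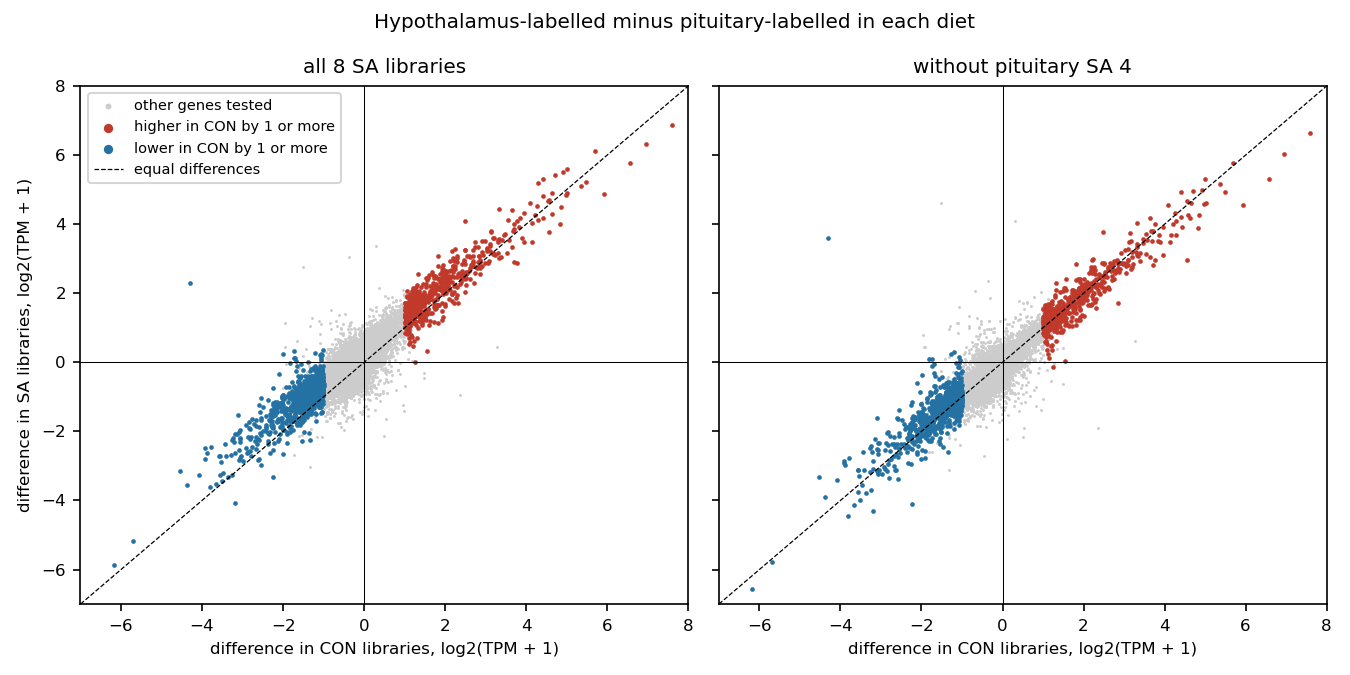
Change between labels in SA-fed sheep (y axis) against that in control sheep (x axis), in log2(TPM + 1), for all 8 SA libraries (left) and without pituitary SA 4 (right), with red and blue for genes higher or lower by 1 or more in control sheep. Most blue genes lie above the dashed line of equal differences on the left, and they lie closer to it on the right.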

How the data were processed

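Expression was measured by RNA-seq in tissue labelled hypothalamus and pituitary, 4 libraries per label and diet, from stranded libraries of oligo(dT)-captured RNA, per the labels' protocols. The tools were fastp, HISAT2 and RSEM, per the submitters' processing notes. Versions, annotation, genome build and whether counting used strand were not given in the sources used here. Values deposited by the authors have no unit in the file header and are taken as TPM, since each library sums to nearly 1000000. They keep no depth, so no counting interval can be given. Of 30722 rows 13350 had no gene name. For 64 repeated names the symbol went to the row of highest mean.

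Genes reaching 1 TPM in 4 or more of the 8 control-diet libraries entered limma 3.58.1, fitted to log2(TPM + 1) under R 4.3.3 (mean trend, robust), two-sided, with Benjamini-Hochberg adjustment over 14427 genes and a threshold of 0.05. The test was first tested on simulated data. Libraries were grouped by their labels. Library measures were compared by exact permutation of 4 against 4 libraries. Alternatives changed the pseudocount (0.1), the filter, the scaling, the limma settings, the library number as a block, and the libraries used. The comparison, the gene lists and the panel were chosen with earlier results of these data known. Named genes are the panel and, in each direction, 15 called genes of largest change with groups not overlapping and 10 of smallest p. Up to 6 passing and 3 not passing members per list were added. The other members named were chosen after their values were seen. Some genes that this rule names are not reported here. RefSeq (ARS-UI_Ramb_v3.0) placed 41 of 298 named genes in overlap with another protein-coding gene, among them ADCY5, ADORA2A, GNAL, PDE10A and PRKCD, where reads can be shared. No reference sequences were used here.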

Additional observations from a re-analysis of the deposited data

Results flagged for a closer look

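Values of 304 named genes were checked in both groups of 4 libraries. In 26 of 608 groups the gap between the highest or lowest library and its neighbour exceeded Dixon's critical value for 4 libraries. Chance alone flags about 1 in 20 groups, and these were 4.28%. The library hypothalamus CON 2 stood apart for POU3F2 at 4.79 TPM (others 5.46 to 5.59) and RELN at 10.9 TPM (others 6.07 to 6.70). The library hypothalamus CON 3 stood apart for CADPS at 46.9 TPM (others 31.3 to 32.6), CRYM at 109 TPM (others 248 to 285) and KCNC2 at 10.7 TPM (others 5.02 to 5.27). It also stood apart for OPRM1 at 1.97 TPM (others 3.26 to 3.58), SPARC at 783 TPM (others 495 to 525) and U1 at 27.7 TPM (others listed at 0). The library hypothalamus CON 4 stood apart for HPCA at 867 TPM (others 1138 to 1179), HTR1A at 2.09 TPM (others 1.36 to 1.42) and NR4A1 at 5.19 TPM (others 9.16 to 9.97). The library pituitary CON 1 stood apart for GNG7 at 32.8 TPM (others 42.4 to 43.98), INHBA at 1.56 TPM (others 1.11 to 1.13) and PECAM1 at 9.22 TPM (others 19.2 to 19.6). It also stood apart for LHX8 at 0.06 TPM (others listed at 0). The library pituitary CON 2 stood apart for SIX3 at 1.98 TPM (others 0.15 to 0.28), SNAP25 at 938 TPM (others 1202 to 1259) and TCF7L2 at 50.8 TPM (others 18.6 to 21.7). It also stood apart for SLC18A3 at 0.06 TPM (others listed at 0). The library pituitary CON 3 stood apart for OPRL1 at 13.3 TPM (others 16.3 to 16.7). The library pituitary CON 4 stood apart for CHRM4 at 0.87 TPM (others 0.36 to 0.41), HCN4 at 3.96 TPM (others 2.77 to 2.92) and RARB at 13.9 TPM (others 9.11 to 9.78). It also stood apart for RGS2 at 26.7 TPM (others 18.5 to 19.1), SYT9 at 17.7 TPM (others 10.7 to 11.2) and SP9 at 0.05 TPM (others listed at 0). Removing each of these libraries in turn kept the calls of CRYM, CHRM4, GNG7, HPCA, KCNC2, RARB, SIX3, SYT9 and TCF7L2.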

How the results depend on the processing

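The number of genes past the threshold was 4471, and 3258 with the library number as a replicate block. The correlations of deviations between same-numbered libraries of the 2 labels were −0.016, −0.297, −0.0247 and 0.0517, so the numbers mark no pairing that the data show. Not every library correlated best with its own number. Leaving out 1 library at a time gave 3415 to 4447 genes, with 887 to 1147 higher and 2475 to 3300 lower, and 1310 to 1590 by a change of 1 or more. Quantile normalization gave 1748 higher and 1976 lower, and 587 lower by 1 or more. Removing mitochondrial and ribosomal RNA gave 2101 lower. The cause of these shifts was not tested. The other settings kept the counts within 1.5 times. In the SA diet, leaving out pituitary SA 3, SA 4 or both gave 834 to 5536 called genes, 563 to 1107 higher and 271 to 4502 lower. These were 4007, 1107 and 2900 without SA 4, 5536 with 4502 lower without SA 3 and SA 4, and 271 lower without SA 3. Of 247 named genes that passed, 227 kept their call under every alternative in which they were tested, and 20 lost it under at least 1, 10 of them with the replicate block, 10 after quantile normalization and 8 after removing mitochondrial and ribosomal RNA. Of 57 named genes that did not pass, 25 passed under at least 1 alternative. CHRM3, GNAO1, KCNA6, KCND2, PAX6 and SST passed as higher under both other scalings. EMX2, which passed, changed sign over all 16 libraries with diet as a covariate. The other changes of sign were among genes that did not pass. Changes of the opposite sign over all 16 libraries with diet as a covariate were CHRM5 0.16, EMX2 0.14, GABBR1 0.14, GAD2 0.43, GLRA2 0.34, GLRB 0.15, GRIA1 0.097, GRIN1 0.33, PBX3 0.38, SCN8A 0.30, TNNT1 0.13, TTR 0.63 and VAMP2 0.090. Changes of the opposite sign after removing mitochondrial and ribosomal RNA were CLDN5 0.18, GABBR1 0.11, GAD2 0.064, GLRA2 0.064, GRIN1 0.13, KCNK1 0.098, PBX3 0.15, SCN8A 0.12 and TNNT1 0.086. Changes of the opposite sign after quantile normalization were CLDN5 0.21, GABBR1 0.15, GAD2 0.050, GLRA2 0.071, GRIN1 0.12, KCNK1 0.082, PBX3 0.15, SCN8A 0.12, TNNT1 0.079 and VAMP2 0.021. Leaving out 1 library turned the sign of some of these genes in at least 1 fit, and the changes then ranged as follows, CLDN5 −0.27 to 0.18, GAD2 −0.49 to 0.20, GLRA2 −0.31 to 0.16, GNB1 −0.030 to 0.11, GPR17 −0.19 to 0.25, GRIN1 −0.19 to 0.10, KCNK1 −0.28 to 0.14, OPRM1 −0.010 to 0.28, PBX3 −0.27 to 0.17, SCN3B −0.020 to 0.21, SCN8A −0.13 to 0.047 and TNNT1 −0.18 to 0.038. TPM keeps no depth, so counting error at low levels cannot be given.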

Other observations

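A row named U1, the name of a small nuclear RNA of the splicing machinery, was called lower but uneven, and was chosen here after its values were seen. It was listed at 0 in hypothalamus CON 1, 2 and 4 and at 27.7 TPM in hypothalamus CON 3, and stood at 27.3, 35.1, 21.9 and 184 TPM in pituitary CON 1 to 4. In the SA libraries it was listed at 0 in pituitary SA 1 to 3 and at 37.04 TPM in pituitary SA 4, so its change was −4.30 in CON and 2.29 in SA (adjusted p = 0.0353 and 0.564). The call in CON was lost without any 1 library other than hypothalamus CON 3 (adjusted p 0.0512 to 0.0975), with the library number as a block (adjusted p = 0.0771) and over all 16 libraries (0.651). Transthyretin (TTR) reached 2384 TPM in hypothalamus SA 2 and 3081 TPM in pituitary SA 4, above all 8 control-diet libraries.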
